A study of Homo sapiens with 6 samples.

Results

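The collagens are the genes whose symbol is COL, a number, A and a number, and the platform annotation names 41 of them among the 17687 genes measured here. Each of the 41 has 1 probe set, so the rule's choice of the probe set with the highest mean signal set nothing aside. No other measured value entered the rule, and the set was chosen with falls among collagens in these data already known, so the differences below describe it. Expression was measured on whole-transcript Affymetrix arrays in SH-SY5Y, an established human neuroblastoma line of sympathetic origin that takes on neuron-like features with retinoic acid. The 3 arrays labelled 15EN and the 3 vehicle controls, VC, come from that line after 96 h with the differentiation agent atRA. The labels give 1 treatment text for both groups, which adds a bioactive compound at 15 µM. The labels do not spell out 15EN, the series title names eurycomanone, and each group has 1 sample at each of passages 33, 34 and 35 by its titles. No label says whether samples of a group were separate cultures beyond their passage, so p-values measure the spread between these arrays only.

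Collagens are secreted or membrane proteins in which a trio of chains winds into a triple helix over long stretches of repeated glycine-led triplets. Fibrillar collagens form the banded fibres of connective tissue, collagen IV forms the sheet of basement membranes, collagen VI forms beaded microfilaments around cells, and the FACIT collagens sit on the surface of fibrils. Chains are hydroxylated and glycosylated in the endoplasmic reticulum, assembled there with dedicated chaperones, trimmed at their ends outside the cell and crosslinked. In nervous tissue collagens lie mostly in basement membranes, in nerve sheaths and around migrating or regenerating cells.

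Values are deposited log2 signals, and every difference is 15EN minus VC. The 90th percentile of 612 negative control probe sets was 7.41 to 7.51 in the 15EN arrays and 7.55 to 7.99 in the VC arrays. A gene whose mean lay at or below the group's average of that percentile is called dim, which does not mean undetected, and the size of a difference that reaches into that range is uncertain. In all, 31 of the 41 collagens were dim in both groups, against 8295 of the 17687 genes. Arrays of the VC group correlated at 0.990 to 0.992 over all probe sets, 15EN replicates 1 and 2 at 0.991, and 15EN replicate 3 with these at 0.979 and 0.980. Of the adrenergic neuroblastoma markers, HAND2 (12.53 in 15EN, 12.44 in VC), GATA3 (12.80 and 12.72), GATA2, ISL1 and PHOX2A were bright in both groups, while TH and CHGA were dim in both and DBH was dim in 15EN. Of the 8 adrenergic markers measured 4 fell (DBH, ISL1, PHOX2A and CHGA; 50%, beside 9.09% of all genes). PHOX2A missed the threshold in 2 and CHGA in 4 of the 6 fits that left out an array (up to 0.076 and 0.114), and the markers' summed linear signal was 21065 to 27026 in 15EN and 29832 to 38170.6 in VC.

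Collagen chains were compared by class between samples labelled 15EN and VC. As deposited, 11 of 41 collagens fell and 0 rose in 15EN (limma, adjusted p below 0.05 over all genes), while 9.09% of all genes fell and 12.3% rose. Those that fell were the fibrillar chains COL5A1, COL11A1, COL1A1 and COL5A3, the collagen IV chains COL4A1 and COL4A2, the beaded-filament chains COL6A1, COL6A2, COL6A3 and COL6A6, and COL18A1. The 11 make up 26.8% of the collagens. By class they are 4 of 10 fibrillar chains, 2 of 6 collagen IV chains and 5 of 25 other collagens. The last class held 4 of 6 beaded-filament chains, 1 of 2 multiplexins, 0 of 10 FACIT chains, 0 of 3 network chains, 0 of 3 transmembrane chains and COL26A1, which did not pass. All 11 were lower in each of the same-numbered pairs of arrays, which follows from the separation of their arrays given below and adds nothing to it. Directions are relative to the median gene (0.01): scaling the arrays to their hybridization controls, which were dimmer in 15EN, raised every difference by 0.87 and the median gene to 0.88. Against 0 on that scale only COL4A1, COL5A1, COL6A1 and COL11A1 still fell, and 19 other collagens passed as higher. Of all genes 2.47% fell and 68.7% rose there. The number of collagens below the median gene was 30 of 41 on either scale.

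**Figure D1:**
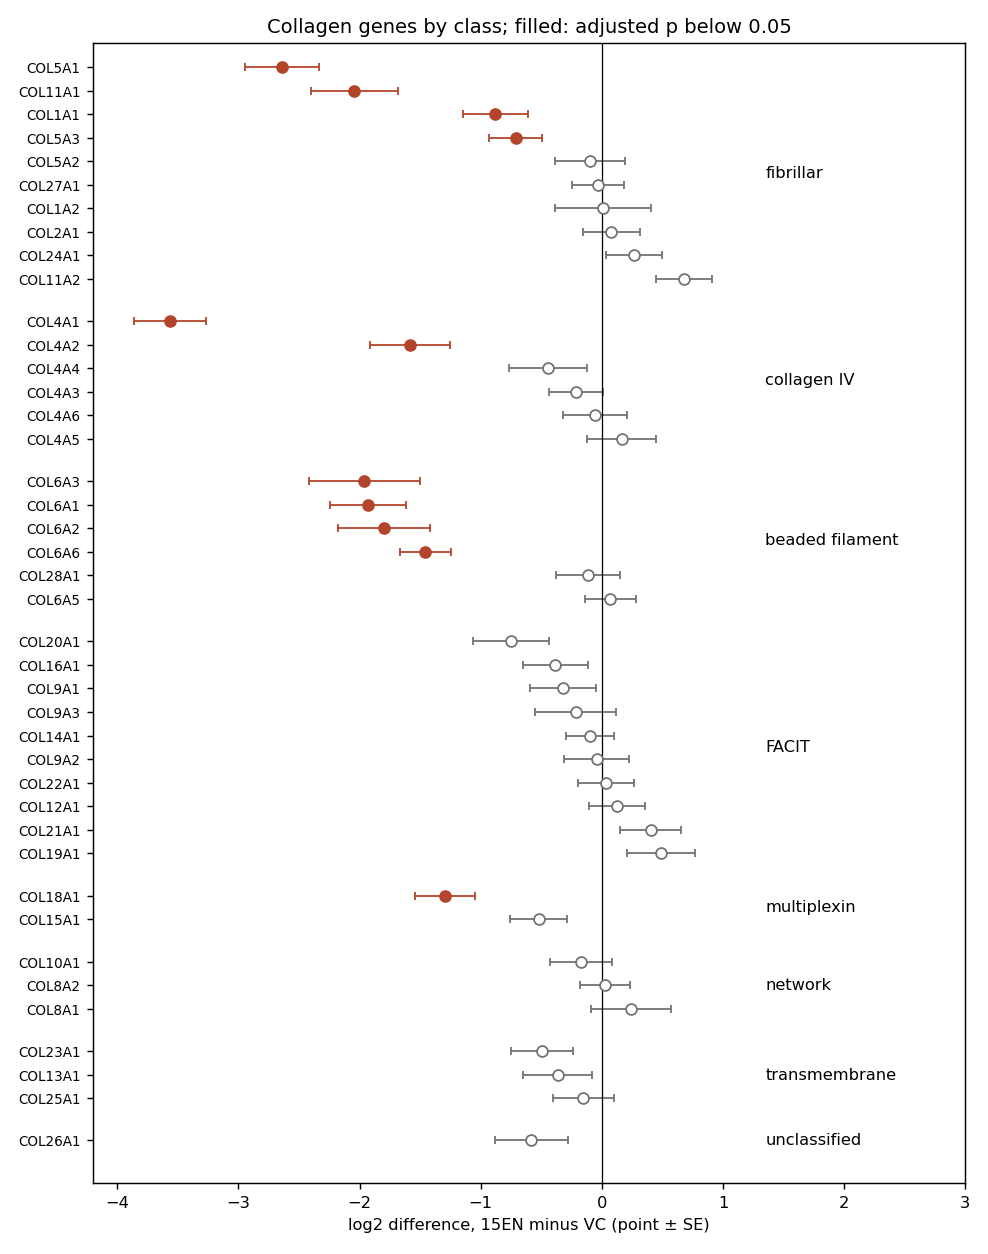
Log2 difference, 15EN minus VC, of each of the 41 collagen genes as deposited (x axis), grouped by class down the page, with the limma standard error as bars. Filled points passed adjusted p 0.05: 11 lie below 0 and 0 above. After scaling to the hybridization controls each point moves right by 0.87, and 4 chains then pass as lower and 19 as higher. Of all genes 2.47% then pass as lower and 68.7% as higher.

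In 12 of 41 collagens (29.3%) all 15EN arrays lay below every VC array, against 16.6% of all genes: the 11 above and COL15A1. In COL11A2 and COL21A1 all 15EN arrays lay above every VC array, a pattern seen in 19.7% of all genes. Without 15EN replicate 3, the array that stands apart, 15 collagens fell and 1 rose, where 12.7% of all genes fell and 18.2% rose. The 4 further falls there were COL9A1, COL15A1, COL20A1 and COL23A1, and COL19A1 rose.

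Collagen IV held the largest difference of any collagen. COL4A1, 1 of the chains of the most widespread collagen IV trimer, had a log2 signal of 5.35, 5.74 and 5.95 in 15EN replicates 1, 2 and 3, against 8.74, 9.81 and 9.20 in VC replicates 1, 2 and 3. All 15EN values lay in the range of the negative controls and all VC values above it. The difference was -3.57 ± 0.29 (SE, n = 3 per group, limma adjusted p = 0.000147), and since 15EN is dim its size is uncertain. COL4A2, the partner chain in that trimer, had 9.58, 10.001 and 10.91 in 15EN, against 11.46, 12.06 and 11.72 in VC. These values stood above the negative controls in all arrays, and 15EN replicate 3 was nearest to VC. COL4A2 fell by 1.58 ± 0.33 (adjusted p = 0.00728), with differences of -1.96 without 15EN replicate 3 and -1.29 without 15EN replicate 1.

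COL4A3, COL4A4, COL4A5 and COL4A6, the chains of the more restricted collagen IV trimers of kidney, lung and some other basement membranes, were dim in both groups. Their differences ran from -0.45 (COL4A4) to 0.16 (COL4A5), with adjusted p of 0.394 to 0.92. Changes in signal beyond 1 lay outside the 95% interval of the difference for 3 of these 4 chains. As all were dim, a change in transcript may not show in the signal and is not excluded. For COL4A4 the interval reached from -1.16 to 0.27.

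The 6 collagen IV genes lie as 3 pairs that start next to each other on opposite strands. In the RefSeq promoter table (GRCh38.p14) the nearest starts of COL4A1 and COL4A2 are 127 bases apart on chromosome 13. The pairs COL4A3 with COL4A4 and COL4A5 with COL4A6 lie on chromosomes 2 and X. The window of COL4A2, chr13:110307034-110307333 on the plus strand, covers both starts of the pair that fell and is printed for that reason. Capitals mark the stretch from the start of COL4A1 (position 110307157, transcribed to the left) to the start of COL4A2 (position 110307284, transcribed to the right).
COL4A1 and COL4A2: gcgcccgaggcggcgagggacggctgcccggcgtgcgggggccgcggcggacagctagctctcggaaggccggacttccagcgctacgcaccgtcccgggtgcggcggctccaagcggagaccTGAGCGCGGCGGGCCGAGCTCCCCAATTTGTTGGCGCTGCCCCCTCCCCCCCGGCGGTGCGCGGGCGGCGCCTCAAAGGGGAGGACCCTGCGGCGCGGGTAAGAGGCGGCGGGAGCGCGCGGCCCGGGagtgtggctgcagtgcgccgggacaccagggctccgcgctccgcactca

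Of 7 other genes measured within 500000 bases of the pair, 0 fell and 1 rose, counts near the 9.09% and 12.3% of all genes. The gene that rose was IRS2, an adaptor of insulin signalling, by 0.78 ± 0.22 (adjusted p = 0.0291), and it was not called in 4 of the 6 fits that left out an array (0.0715 to 0.129). CARS2, RAB20, NAXD, ING1, ANKRD10 and PRECSIT differed by -0.40 to 0.74, with adjusted p of 0.188 to 0.747.

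Among fibrillar collagens, COL5A1 and COL11A1 had the largest falls. COL5A1 encodes a chain of collagen V, which starts and limits the width of collagen I fibrils. It had 6.57, 7.30 and 6.84 in 15EN replicates 1, 2 and 3, against 8.94, 9.74 and 9.95 in VC. The groups were separated by 1.64 between their nearest arrays, and the 15EN arrays lay below their negative control percentile. The difference was -2.64 ± 0.30 (adjusted p = 0.00039), with size uncertain for that reason. COL11A1, a chain of the minor fibrillar collagen XI, had 11.63, 12.56 and 13.14 in 15EN, against 14.10, 14.79 and 14.57 in VC. It was far above the negative controls in all 6 arrays. It fell by 2.04 ± 0.36 (adjusted p = 0.0031), which is 4.13-fold lower in 15EN.

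COL1A1 and COL5A3 passed closer to the threshold. COL1A1, the more abundant chain of the usual collagen I trimer, had 7.55, 7.07 and 7.33 in 15EN, against 7.88, 8.71 and 7.998 in VC. The groups did not overlap, but only 0.33 separated the nearest arrays, and the 15EN mean is dim, so the size is uncertain. The difference of -0.88 ± 0.27 (adjusted p = 0.0393) was no longer called when 15EN replicate 1 (0.0552), 15EN replicate 2 (0.132), VC replicate 2 (0.164) or VC replicate 3 (0.0754) was left out. COL5A3, another collagen V chain, was dim in both groups, with 4.95, 5.07 and 5.42 in 15EN, against 5.97, 5.74 and 5.86 in VC. Its difference of -0.71 ± 0.22 (adjusted p = 0.0387) held without 15EN replicate 3 (0.00841). Without 15EN replicates 1 and 2 or VC replicates 1, 2 and 3 its adjusted p was 0.13, 0.108, 0.129, 0.09 and 0.113.

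The partner chains of collagen I and V behaved otherwise in these arrays, although no test compared one chain's difference with another's. COL1A2, the other collagen I chain, had 9.09, 9.33 and 10.84 in 15EN, against 9.82, 9.72 and 9.70 in VC. The VC arrays lay within 0.12 of each other, and the 15EN arrays lay on either side of them. The difference was 0.01 ± 0.39 (adjusted p = 0.992), with a 95% interval of -0.87 to 0.88, and it was -0.54 without 15EN replicate 3 (adjusted p = 0.0694). COL5A2, the second chain of the main collagen V trimer, was dim in both groups, at 4.83, 5.13 and 5.88 in 15EN and 5.29, 5.65 and 5.19 in VC, a difference of -0.10 ± 0.29 (adjusted p = 0.869). COL11A2, the second collagen XI chain, was dim as well, with 5.44, 5.77 and 6.12 in 15EN, against 4.95, 5.27 and 5.08 in VC. Its difference of 0.68 ± 0.23 missed the threshold (adjusted p = 0.0658) and passed after quantile normalization (0.0409), after removal of a brightness trend (0.0364), without 15EN replicate 1 (0.0498) and after scaling to the hybridization controls (0.00078). COL2A1, the cartilage fibril chain shared with collagen XI, COL24A1 and COL27A1 were dim in both groups and differed by 0.08, 0.26 and -0.03.

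**Figure D2:**
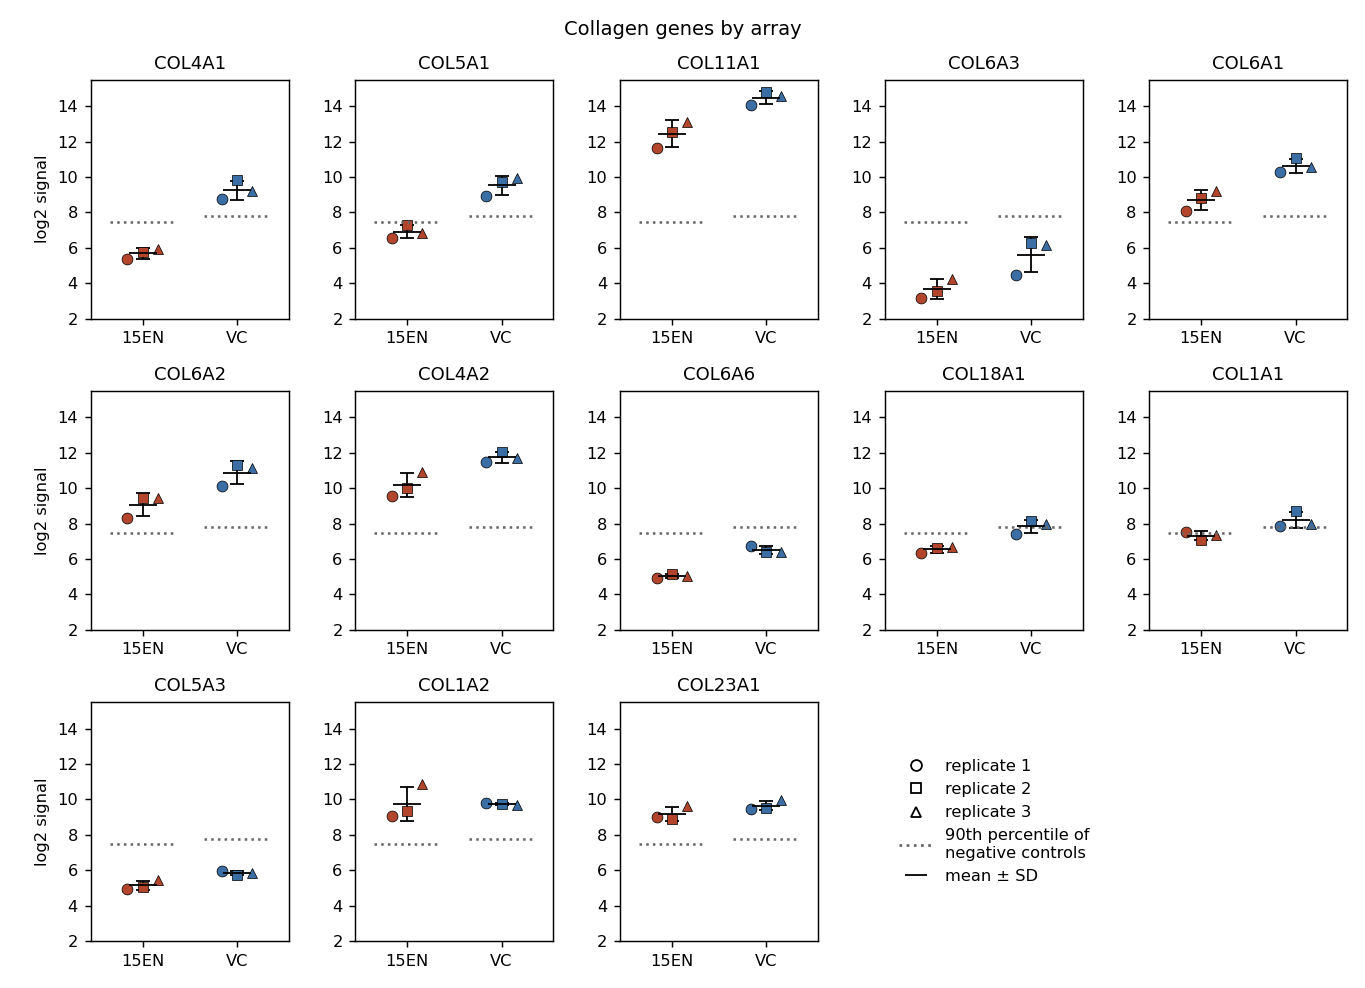
Log2 signal by array (y axis) for the 11 collagens past the threshold as deposited and for COL1A2 and COL23A1, with 15EN left of VC in each panel; marker shapes are replicates, black bars the mean ± SD of 3 arrays, dotted lines the group's mean 90th percentile of the negative controls. The groups are separate in the first 11 panels and overlap in COL1A2 and COL23A1. Scaling to the hybridization controls raises 15EN relative to VC by 0.87 in each panel, which turns the difference of COL5A3 to 0.16.

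The 3 chains of the classical collagen VI trimer fell together with the alternative chain COL6A6. COL6A1 had 8.09, 8.81 and 9.21 in 15EN replicates 1, 2 and 3, against 10.29, 11.05 and 10.56 in VC. COL6A2, its partner, had 8.34, 9.45 and 9.44 in 15EN, against 10.12, 11.32 and 11.17 in VC. For these bright genes the differences were -1.93 ± 0.31 (adjusted p = 0.0021) and -1.80 ± 0.38 (adjusted p = 0.00775). Replicate 1 was the lowest array of both groups for either gene, so the same-numbered differences of COL6A2 were -1.79, -1.87 and -1.73.

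COL6A3, the large chain that completes the trimer, was dim in both groups, with 3.18, 3.54 and 4.26 in 15EN, against 4.46, 6.26 and 6.16 in VC. VC replicate 1 was the low array of its group and only 0.19 above the highest 15EN array. The difference was -1.96 ± 0.46 (adjusted p = 0.0124), and leaving out VC replicate 2 (-1.65, adjusted p = 0.0658) or VC replicate 3 (-1.70, adjusted p = 0.0638) ended the call. COL6A6, which can stand in for COL6A3 in trimers, had 4.90, 5.17 and 5.05 in 15EN, against 6.74, 6.37 and 6.39 in VC. It too was dim, and its arrays were tight in both groups: the difference was -1.46 ± 0.21 (adjusted p = 0.00122). COL6A5, the other alternative chain, and COL28A1, a related beaded-filament chain, were dim, with differences of 0.07 ± 0.21 and -0.11 ± 0.27 (adjusted p = 0.87 and 0.829).

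COL18A1, whose C-terminal fragment is endostatin and which belongs to basement membranes, had 6.34, 6.62 and 6.70 in 15EN, against 7.41, 8.14 and 7.98 in VC. All 15EN values were dim and VC replicate 1 was too. The difference was -1.29 ± 0.25 (adjusted p = 0.00463). COL15A1, the other multiplexin, was dim in both groups, with 5.87, 6.20 and 6.58 in 15EN, against 6.85, 6.74 and 6.62 in VC. The groups did not overlap but only 0.03 separated them, and the difference of -0.52 ± 0.24 missed the threshold (adjusted p = 0.156).

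COL18A1, COL6A1 and COL6A2 lie in 1 stretch of chromosome 21 in RefSeq (GRCh38.p14), from position 45405165, where COL18A1 starts, to position 46132848, where COL6A2 ends. Of the 20 genes annotated in that stretch, only 3 besides these collagens were measured. Of these 3, 1 fell, beside 9.09% of all genes, and so few genes cannot show whether the stretch fell as a whole. The gene that fell was PCBP3, which encodes an RNA-binding protein, with a difference of -1.92 ± 0.31 (adjusted p = 0.0021). The folate carrier gene SLC19A1 differed by -0.47 ± 0.27 (adjusted p = 0.264) and COL18A1-AS1 by 0.08 ± 0.22 (adjusted p = 0.855), and COL18A1-AS1 was dim in both groups.

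The other collagens gave no call as deposited. COL23A1, a transmembrane collagen, was, with COL1A2, 1 of 2 chains without a call that were not dim in either group, with 8.99, 8.87 and 9.60 in 15EN, against 9.47, 9.52 and 9.94 in VC. The groups overlapped, and the difference was -0.49 ± 0.26 (adjusted p = 0.219; -0.72 with adjusted p = 0.031 without 15EN replicate 3). COL13A1 and COL25A1, also transmembrane, differed by -0.37 and -0.15.

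The 10 FACIT chains were dim in both groups, and their differences ran from -0.75 (COL20A1) to 0.49 (COL19A1), with adjusted p of 0.128 to 0.942. COL20A1 had 6.24, 5.89 and 6.84 in 15EN, against 6.49, 7.40 and 7.32 in VC, and passed without 15EN replicate 3 (-1.01, adjusted p = 0.0212). COL21A1 had 3.46, 3.30 and 4.15 in 15EN, against 3.19, 3.23 and 3.29 in VC, a difference of 0.40 ± 0.25 (adjusted p = 0.32). COL9A1, COL9A2 and COL9A3, the chains of collagen IX on cartilage fibrils, differed by -0.32, -0.04 and -0.22. The network chains COL8A1, COL8A2 and COL10A1 differed by 0.24, 0.03 and -0.17, and COL26A1 by -0.58 ± 0.30 (adjusted p = 0.223). Over all 30 collagens without a call, the 95% interval of the signal difference excluded a fall of 1 or more in 24. Of the 30, 28 were dim in both groups, where a change in transcript may not show in the signal. For those the interval does not exclude a fall in transcript. COL3A1, COL7A1 and COL17A1 were not analysed here.

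The median difference was -0.06 over the 10 fibrillar chains, -0.33 over the 6 collagen IV chains, -0.22 over the 25 other collagens and -1.63 over the 6 beaded-filament chains, beside 0.01 over all genes. All of these rise by 0.87 after scaling to the hybridization controls. Per array, relative to each gene's VC mean, the fibrillar median was -0.60, -0.33 and 0.22 in 15EN replicates 1, 2 and 3, against -0.17, 0.18 and -0.02 in VC. The collagen IV median was -0.59, -0.53 and 0.05 in 15EN, against -0.24, 0.18 and 0.06 in VC. In fibrillar chains 15EN replicate 3 lay above all VC arrays, and in collagen IV chains within their range. The beaded-filament median was -2.02, -1.38 and -1.39 in 15EN, against -0.19, 0.22 and 0.06 in VC, so there all 15EN arrays stood below VC. The FACIT median was -0.27, -0.17 and 0.16 in 15EN, against -0.06, -0.0028 and 0.09 in VC. Over all genes the median was -0.03, -0.04 and 0.07 in 15EN, against 0.0036, 0.0023 and -0.0067 in VC. There too 15EN replicate 3 lay above all VC arrays.

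**Figure D3:**
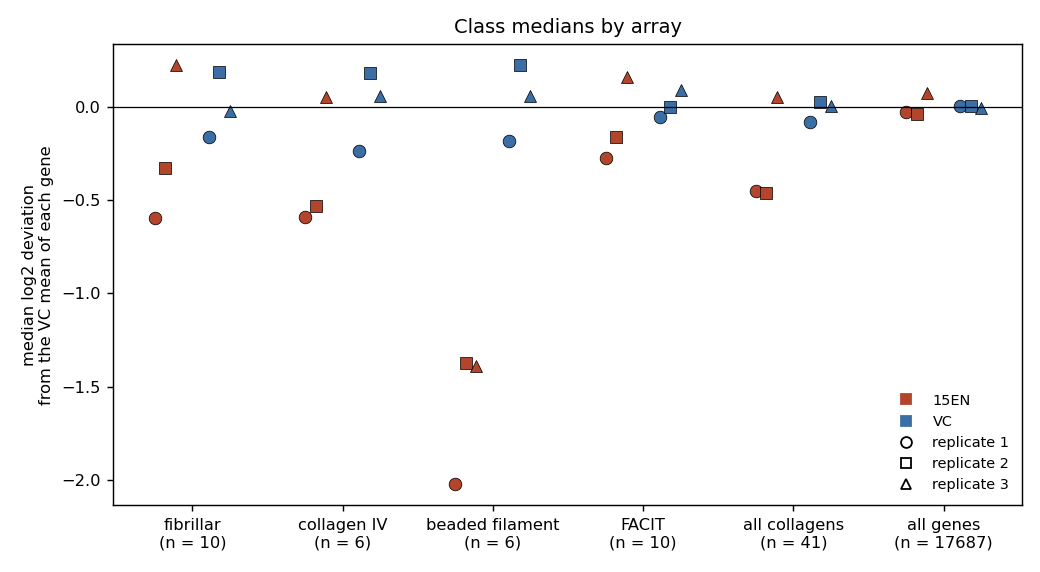
Median over class members of the log2 deviation from each gene's VC mean (y axis), per array, with 15EN left of VC for each class; marker shapes are replicates. The beaded-filament median of the 15EN arrays lies between -2.02 and -1.38. As deposited, 15EN replicate 3 lies above the VC arrays in the fibrillar, FACIT and all-collagen medians and also in the all-gene median. It stands at 0.05 over all collagens and 0.07 over all genes. On the scale of the hybridization controls, 15EN moves up by 0.87 relative to VC in every column.

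Passages and replicate numbers split the arrays in the same way, so differences by passage restate the array values above. Among the 11 chains that passed, which were picked by their fall in these arrays, the median 15EN minus VC difference was -1.84 at passage 33. It was -2.06 at passage 34 and -1.35 at passage 35. Over all 41 collagens, 32, 33 and 22 chains were below 0 at passages 33, 34 and 35, with medians of -0.36, -0.49 and -0.07.

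Over all 6 arrays, 8 collagens had a mean above the average negative control percentile of 7.63, and 6 of these fell: COL1A1, COL4A2, COL5A1, COL6A1, COL6A2 and COL11A1. That mean takes in both groups. COL1A1 and COL5A1 were dim in 15EN and lay above the level through VC, so the count describes these chains and tests nothing. COL4A2, COL6A1, COL6A2 and COL11A1 were bright in both groups. Among all 8901 genes above that level 14.6% fell and 20.3% rose. Of the 33 collagens at or below it, 5 fell (15.2%) and 0 rose, among them COL4A1, beside 3.52% lower and 4.23% higher among all 8786 genes at or below it.

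**Figure D4:**
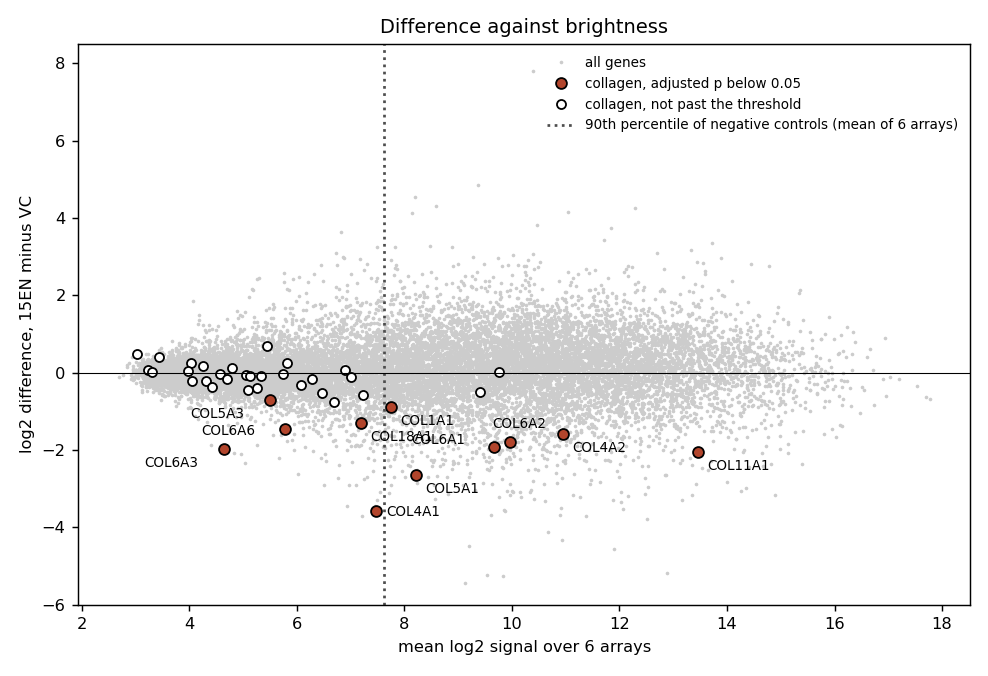
Log2 difference, 15EN minus VC, as deposited (y axis) against mean log2 signal over 6 arrays (x axis) for all 17687 genes (grey) and the 41 collagens; the dotted line is the average 90th percentile of the negative controls, 7.63. Of the 8 collagens right of the line 6 are filled, meaning adjusted p below 0.05, and COL1A2 and COL23A1 are open. COL1A1 and COL5A1 lie right of it through their VC values, as both were dim in 15EN. On the scale of the hybridization controls all points move up by 0.87.

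The promoters of 3 chains with means above the negative control level over all arrays are shown: the fibrillar chains COL5A1 and COL11A1 and the beaded-filament chain COL6A2. Windows run from 250 bases before to 50 bases after the RefSeq start and are printed 5′ to 3′ on the gene's strand. Capitals mark matches to GGGCGG, to CCAAT or to TATAAA on either strand. These are the windows chr9:134641553-134641852 on the plus strand, chr1:103108473-103108772 on the minus strand and chr21:46097862-46098161 on the plus strand, GRCh38.p14.
COL5A1: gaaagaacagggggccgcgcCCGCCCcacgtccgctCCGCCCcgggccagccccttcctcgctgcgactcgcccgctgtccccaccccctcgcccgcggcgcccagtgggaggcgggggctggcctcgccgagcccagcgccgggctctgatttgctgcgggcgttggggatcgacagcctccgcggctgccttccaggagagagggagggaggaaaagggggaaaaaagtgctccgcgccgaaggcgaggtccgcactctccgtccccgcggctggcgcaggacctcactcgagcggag
COL11A1: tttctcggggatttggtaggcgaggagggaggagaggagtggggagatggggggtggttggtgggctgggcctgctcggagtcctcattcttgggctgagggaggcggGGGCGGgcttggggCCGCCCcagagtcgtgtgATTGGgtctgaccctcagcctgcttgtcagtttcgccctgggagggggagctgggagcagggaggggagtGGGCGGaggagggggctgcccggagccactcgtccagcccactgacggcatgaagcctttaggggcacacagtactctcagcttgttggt
COL6A2: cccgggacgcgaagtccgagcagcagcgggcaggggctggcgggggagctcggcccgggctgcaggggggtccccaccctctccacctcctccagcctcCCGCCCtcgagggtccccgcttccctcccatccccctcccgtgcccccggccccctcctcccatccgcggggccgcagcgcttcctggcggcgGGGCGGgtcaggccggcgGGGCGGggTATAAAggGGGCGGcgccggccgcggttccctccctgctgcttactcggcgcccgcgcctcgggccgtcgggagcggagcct

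GGGCGG, the core of a GC box, was found 2 times in the COL5A1 window, 3 times in that of COL11A1 and 4 times in that of COL6A2, on either strand. CCAAT was found 1 time, in COL11A1, and TATAAA 1 time, in COL6A2. A window was found for 30 of the 41 collagens (the one of lowest position where a gene has several). GGGCGG was present in 8 of 9 windows of chains that fell, of which those of COL4A1 and COL4A2 overlap, and in 10 of 21 windows of chains without a call. It was present in 43.8% of the windows of all 27305 genes. CCAAT was present in 4 of the 9 and 6 of the 21, against 35.6% of all genes, and TATAAA in 2 of the 9 and 2 of the 21, against 12.1%. These are letter matches only.

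Genes that make, export and bind collagen were taken as 6 lists, with 81 of 86 listed genes measured. The lists were chosen with earlier results of these data known, so the shares below describe them and test nothing. In 15EN, 33 of the 81 fell (40.7%) and 5 rose (6.17%) as deposited, beside 9.09% and 12.3% of all genes and 14.6% and 20.3% of the genes above the negative control level. Each list's counts below are to be read against those shares. The first list holds enzymes that hydroxylate or glycosylate collagen chains, together with partner proteins of these enzymes. Of its 14 measured genes, 7 fell (50%, beside 9.09% of all genes) and 1 rose (beside 12.3% of all genes), with a median difference of -0.88. PLOD1, a lysyl hydroxylase, had 10.93, 11.19 and 11.51 in 15EN, against 13.26, 13.98 and 13.63 in VC, and fell by 2.42 ± 0.25 (adjusted p = 0.000289). COLGALT1, which adds galactose to hydroxylysine, had a difference of -1.50 ± 0.30. The prolyl 4-hydroxylase catalytic subunit P4HA2 fell by 1.43 ± 0.30, its partner subunit P4HB by 1.02 ± 0.20, and the prolyl 3-hydroxylase family members P3H3 by 1.29 ± 0.28 and P3H4 by 1.22 ± 0.25. P3H4 was dim in 15EN, so the size of its fall is uncertain. CRTAP, a partner of P3H1, fell as well, by 1.89 ± 0.44 (adjusted p = 0.0124). Its call was lost without 15EN replicate 2 or VC replicate 2 (0.0528 and 0.0609), and its same-numbered differences were -2.59, -2.52 and -0.55. P3H2, named after its values were seen, rose by 1.42 ± 0.33, with a dim VC level (adjusted p = 0.0128; 0.0628 without VC replicate 3). P4HA1, the other main catalytic subunit, differed by -0.12 ± 0.27. After scaling to the hybridization controls, 1 gene of this list fell and 4 rose, beside 2.47% and 68.7% of all genes.

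Of 13 genes of collagen folding and export, 6 fell (46.2%, beside 9.09% of all genes) and 2 rose, a share near the 12.3% of all genes, with a median of -0.34. SERPINH1, which encodes the collagen-specific chaperone HSP47, had 11.99, 12.21 and 11.69 in 15EN, against 13.47, 13.56 and 13.54 in VC. All 15EN arrays lay below VC, and it fell by 1.56 ± 0.21 (adjusted p = 0.000933). The disulfide isomerase gene PDIA3 fell by 2.04 ± 0.24, the prolyl isomerase gene FKBP7 by 1.85 ± 0.26, HSPA5 (BiP, the general chaperone of the endoplasmic reticulum) by 1.10 ± 0.21, and the COPII coat gene SEC23A by 0.89 ± 0.21. FKBP14, another prolyl isomerase gene, fell by 0.78 ± 0.21 (adjusted p = 0.0242) and was not called in 4 of the 6 fits that left out an array (0.0765 to 0.1001). SEC23A missed the threshold without 15EN replicate 1 (0.0599), VC replicate 2 (0.0704) or VC replicate 3 (0.0536). TMEM131, which takes part in collagen secretion, rose by 1.08 ± 0.29 (adjusted p = 0.0237). Without 15EN replicate 2 or VC replicates 1, 2 and 3 its adjusted p was 0.0673, 0.081, 0.0706 and 0.0837. MIA3, the receptor TANGO1 that loads procollagen for export, named after its values were seen, rose by 0.74 ± 0.22 (adjusted p = 0.0399). It missed the threshold in every fit that left out an array other than 15EN replicate 3 (0.0641 to 0.148), after quantile normalization (0.0561) and after removal of a brightness trend (0.0805). On the scale of the hybridization controls 3 genes of this list fell and 6 rose, beside 2.47% and 68.7% of all genes.

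Of 13 genes of propeptide removal and crosslinking, 6 fell (46.2%, beside 9.09% of all genes) and 0 rose (beside 12.3%), with a median of -0.52. ADAMTS2 and ADAMTS14, proteases that cut the N-terminal propeptide, fell by 1.88 ± 0.30 (adjusted p = 0.00198) and 1.43 ± 0.23 (adjusted p = 0.00206). ADAMTS2 was dim in 15EN and ADAMTS14 in both groups, so these sizes are uncertain. BMP1, the protease of the C-terminal propeptide, fell by 1.27 ± 0.30, its enhancer PCOLCE by 1.03 ± 0.25, and the lysyl oxidase family member LOXL3, dim in both groups, by 0.93 ± 0.25. TGM2, a transglutaminase gene, differed by -1.99 ± 0.50 (adjusted p = 0.0172). Only 2 of the 6 passed without VC replicate 2, ADAMTS2 and ADAMTS14, and adjusted p there was 0.065 for BMP1, 0.0523 for PCOLCE, 0.0633 for TGM2 and 0.116 for LOXL3. PCOLCE also missed the threshold without 15EN replicate 1 (0.058), 15EN replicate 2 (0.0518) or VC replicate 1 (0.0673), TGM2 without VC replicate 1 (0.074) and LOXL3 without VC replicate 3 (0.0854). LOX, LOXL1, LOXL4, PCOLCE2, TLL1 and TLL2 were dim in both groups and did not pass. After scaling to the hybridization controls 1 gene fell and 5 rose, beside 2.47% and 68.7% of all genes.

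Of 9 binding partners of collagen IV and other basement membrane collagens, 6 fell (66.7%, beside 9.09% of all genes) and 0 rose (beside 12.3%), with a median of -1.11. PXDN, the peroxidase that forms the sulfilimine bond between collagen IV molecules, had 12.02, 12.26 and 12.24 in 15EN, against 13.81, 14.06 and 13.87 in VC. It fell by 1.74 ± 0.20 (adjusted p = 0.000432), with both groups tight. SPARC, a collagen-binding glycoprotein, fell by 1.66 ± 0.31 and the fibulin gene FBLN1 differed by -1.63 ± 0.32 (adjusted p = 0.00547). Falls were also called for the perlecan gene HSPG2 by 1.23 ± 0.31 and the laminin chains LAMC1 by 1.11 ± 0.22 and LAMB1 by 0.85 ± 0.20. HSPG2 was dim in 15EN, so the size of its fall is uncertain. LAMB1 missed the threshold without VC replicate 2 (0.0664) or 3 (0.0568). HSPG2 missed it without 15EN replicates 1 and 2 or VC replicates 1, 2 and 3 (0.0616, 0.061, 0.0567, 0.0797 and 0.063). On the scale of the hybridization controls 1 gene of this list fell and 1 rose, beside 2.47% and 68.7% of all genes. LAMB1 stood at 0.02 there.

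Of 12 collagen receptors, 4 fell (33.3%, beside 9.09% of all genes) and 1 rose, below the 12.3% of all genes, with a median of -0.12. ITGB1, the β1 subunit that all collagen-binding integrins share, had 13.73, 13.76 and 14.79 in 15EN, against 15.88, 16.22 and 16.37 in VC, and fell by 2.06 ± 0.30 (adjusted p = 0.00131). MRC2, an endocytic collagen receptor, fell by 1.39 ± 0.21, the integrin subunit ITGA11 by 1.84 ± 0.43 and the receptor tyrosine kinase DDR1 by 0.87 ± 0.25. ITGA11 was dim in 15EN, so the size of its fall is uncertain. ITGA11 missed the threshold without VC replicate 2 (0.0669) or 3 (0.0641), whereas DDR1 lost its call in 4 of the 6 fits that left out an array (0.0592 to 0.121). Leaving out either of those VC arrays left 2 receptors as lower. ADGRG1, an adhesion receptor whose ligands include collagen III, rose, with 7.99, 8.64 and 6.18 in 15EN, against 4.85, 5.01 and 5.28 in VC, a difference of 2.55 ± 0.50 (adjusted p = 0.00538). Its VC level was dim and 15EN replicate 3 lay in the range of the negative controls, so the size is uncertain. DDR2, bright in both groups, differed by -0.21 ± 0.24 (adjusted p = 0.619), and ITGA2 by -1.72 ± 0.68 (adjusted p = 0.107). With the passage as a replicate block ITGA2 passed (adjusted p = 0.00479), with same-numbered differences of -2.20, -2.35 and -0.60, and 5 receptors fell. After scaling to the hybridization controls 1 receptor fell and 6 rose, beside 2.47% and 68.7% of all genes.

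**Figure D5:**
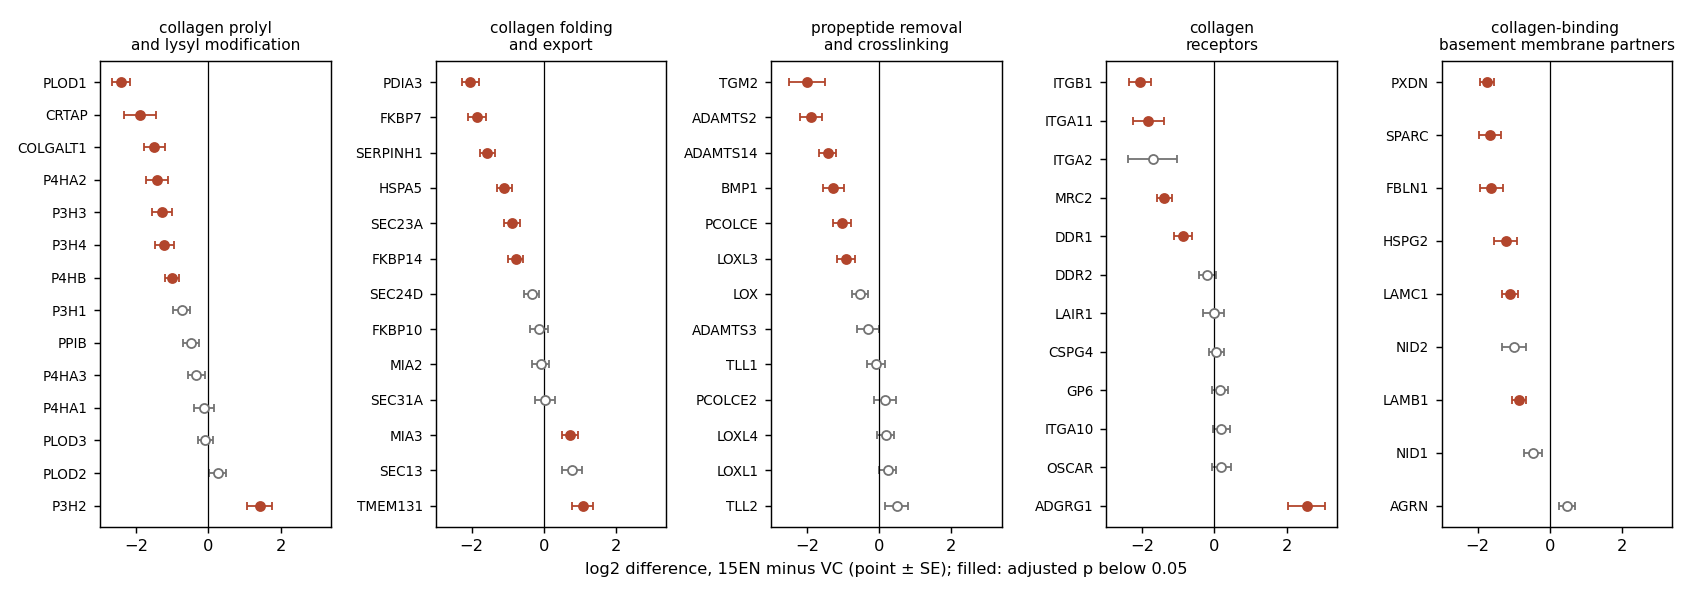
Log2 difference, 15EN minus VC, as deposited (x axis, point ± SE from limma) of the measured members of 5 lists of collagen-related genes, 1 panel a list; filled points passed adjusted p 0.05. Falls outnumber rises among the filled points of each panel: 7 and 1, 6 and 2, 6 and 0, 4 and 1, and 6 and 0 from left to right. The lists were chosen with earlier results of these data known, so these counts test nothing. On the scale of the hybridization controls all points move right by 0.87, and rises outnumber falls in the first 4 panels. Of all genes 2.47% fell and 68.7% rose on that scale.

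Markers of collagen-making cell types are given beside these results, and their part in the differences was not tested. Of 8 fibroblast markers 1 fell (12.5%, near the 9.09% of all genes): THY1 (-0.79 ± 0.25, adjusted p = 0.0459; not called in 4 of the 6 fits that left out an array, 0.0755 to 0.162). Of the 8 differences 6 were below 0 (48.8% of all genes). In 37.5% of the markers all 15EN arrays lay below every VC array, beside 16.6% of all genes. LUM, dim in 15EN, was among these, at -1.07 ± 0.44 (limma adjusted p = 0.121, and 0.0378 with the replicate block). The markers' summed linear signal was 21808 to 28510.3 in 15EN and 21229.8 to 28159 in VC. The groups overlapped in that sum, where PDGFRB and PDGFRA, the brightest members, weigh most. PDGFRB (13.72 in 15EN, 13.57 in VC) and PDGFRA (13.26 and 12.82) were bright, DCN was bright and variable, and FAP, TCF21 and S100A4 were dim in both groups. Of 8 markers of mesenchymal neuroblastoma cells 2 fell (25%, beside 9.09% of all genes) and 1 rose (beside 12.3% of all genes). VIM (-0.95 ± 0.21, adjusted p = 0.0106) and SNAI2 (-0.73 ± 0.21, adjusted p = 0.033) fell. YAP1 rose by 1.43 ± 0.21 (adjusted p = 0.00118) from a dim VC level, so the size of its rise is uncertain. It was called in all 6 fits that left out an array. FN1, CD44, TWIST1 and WWTR1 did not pass, with differences of -1.36, -0.60, -0.34 and 0.17. With the replicate block FN1 passed (limma adjusted p = 0.00285). SNAI2 was not called in 5 of the 6 fits that left out an array (0.075 to 0.115). The list had a summed signal of 38479.8 to 54259.9 in 15EN and 82569.6 to 86545 in VC, and VIM, its brightest member, weighs most there. PRRX1, which defines that state, was dim in both groups at 4.84 and 4.83. The 5 measured Schwann markers and the 5 endothelial markers were all dim in both groups and none passed, with sums of 175 to 230.1 in 15EN and 195 to 221 in VC for Schwann and of 143 to 233 in 15EN and 176 to 184 in VC for endothelial markers. Fewer cells of a type and less RNA per cell cannot be told apart in these samples.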

How the data were processed

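SH-SY5Y samples labelled 15EN (3) and VC (3) were measured on 1-colour arrays prepared from 100 ng of total RNA, per the labels' protocols. The authors deposited log2 signals, 1 per probe set and array, made with the Transcriptome Analysis Console per the submitters' processing notes; version, normalization and build are not stated there. The log2 scale was judged from the values (2.20 to 18.8). The number of arrays limits the precision.

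Of 21448 gene probe sets, 17709 have 1 gene symbol in the platform annotation, 0 several and 3739 none here, giving 17687 genes, whose symbols all occur in RefSeq. The test was limma (version 3.58.1, under R 4.3.3; lmFit and eBayes, two-sided, group as the only term) with Benjamini-Hochberg adjustment over all genes at 0.05. Errors beside differences are standard errors. The code was tested on simulated data. Replicate numbers mark a shared passage in the titles, and same-numbered arrays deviated together (correlations 0.229, 0.162 and 0.133 across genes). They thus pair the samples, but p-values given without a setting come from the fit that leaves this pairing out. The block, which takes it in, is an alternative, and the calls it added are given below. The sample descriptions give passage 33 throughout, and the titles were followed.

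Named genes are all collagens past the threshold, bright in a group or given as markers (COL4A1, COL5A1, COL6A1, COL11A1), and up to 6 members of smallest p per collagen-related list; others are named where counts or contrasts needed them, after their values were seen. Members and lists were chosen with earlier results of these data known. Alternatives covered the block, normalization, scaling, a brightness trend, dim probe sets, array weights, the prior, averaged probe sets and each array left out.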

Additional observations from a re-analysis of the deposited data

How the results depend on the processing

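The 11 falls were kept with the replicate number as a block, after quantile normalization, median centring and removal of a brightness trend, with averaged probe sets, with array weights (14 collagens fell) and without 15EN replicate 3; the block, which pairs arrays of 1 passage, changed the call of 0 of 41 collagens, with 11 lower and 0 higher. Among members of the collagen-related and marker lists the block added calls and removed 0: P3H1 (0.0402), NID2 (0.0292), CREB3L2 (0.00865), SEC13 (0.0454), ITGA2 (0.00479), FN1 (0.00285), LUM (0.0378) and GATA2 (0.0324). With a trended robust prior COL5A3 missed the threshold (0.0523). Leaving out 1 array gave 8 to 15 falls and 0 to 1 rises among collagens, and 2271 to 5467 calls over all genes. Quantile normalization and removal of a brightness trend each gave 1 rise, COL11A2. Scaling to the hybridization controls gave 12587 calls over all genes (96.5% of them higher, against 57.5% as deposited and 51.8% after removal of a brightness trend), 4 collagen falls and 19 rises, with medians of 0.81 for fibrillar, 0.54 for collagen IV and 0.65 for other collagens, because it adds a constant to every gene. There COL5A3 (0.16), COL15A1 (0.35), COL20A1 (0.12), COL23A1 (0.37) and LAMB1 (0.0161), FKBP14 (0.0856), THY1 (0.0767), SNAI2 (0.135), SLC19A1 (0.397) and DDR2 (0.662) changed sign without passing, and P4HA1 (0.744) changed sign and passed; P4HA1 was also above 0, at 0.12, without 15EN replicate 3. Without the dimmest tercile of probe sets 20 collagens were left, and medians were -2.57 for collagen IV and -0.55 for other collagens because dim members had gone. COL1A2, near 0 as deposited, was -0.0786 after quantile normalization, -0.11 after removal of a brightness trend, -0.37 with array weights, and -0.54 to 0.34 without 1 array, with -0.54 without 15EN replicate 3, -0.00434 without VC replicate 2 and -0.0135 without VC replicate 3. Of 836 recomputed differences of 56 named genes (P4HA1, DDR2, markers and neighbours apart), 723 kept direction and side of the threshold, 87 lost and 14 gained a call, and 12 changed sign. For collagens the block, the prior, the left-out tercile and averaged probe sets leave the difference itself unchanged. Median centring hardly moves it (COL4A1 at -3.5653 as deposited and -3.56468 then). The 723 therefore tells nothing about direction under those settings.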

Other observations

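Genes that control collagen transcription or collagen mRNA were also measured. Of 20 such genes, 4 fell (20%) and 1 rose in 15EN as deposited, with a median difference of -0.11. The share that fell is near the 14.6% among genes above the negative control level (9.09% of all genes), and the share that rose is below the 12.3% of all genes. SMAD7, the inhibitor of TGF-β receptor signalling, had 10.63, 10.29 and 10.24 in 15EN, against 11.82, 12.06 and 12.09 in VC, a difference of -1.60 ± 0.21 (limma adjusted p = 0.000791). The ligand gene TGFB3 fell by 1.21 ± 0.20 while dim in both groups, and RFX5, a factor that binds collagen I gene promoters, by 1.13 ± 0.21. SOX5, which acts with SOX9 on cartilage collagen genes, fell by 1.11 ± 0.21. SOX9 rose, with 13.57, 15.35 and 14.55 in 15EN, against 12.59, 13.09 and 13.24 in VC, by 1.52 ± 0.39 (adjusted p = 0.0203). That call was lost without 15EN replicate 2 (0.0633) or VC replicate 1 (0.0879) or 2 (0.0644). TGFB1, TGFBR2, SMAD2, SMAD3, SMAD4 and LARP6, which binds collagen I mRNA, did not pass (adjusted p of 0.276 to 0.986). After scaling to the hybridization controls 1 gene of this list fell and 10 rose, beside 2.47% and 68.7% of all genes.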
